A study of Mus musculus with 24 samples.

Results

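The collagen genes are the genes whose symbol has the form Col, a number, a and a second number, each of which encodes 1 collagen alpha chain. There were 44 of them among the 26411 genes of the count tables, 11 encoding fibrillar chains, 8 encoding basement membrane chains and 25 encoding other chains, and all 44 were annotated as protein-coding. RNA was sequenced from neural stem and progenitor cells (NSPCs) isolated from the dorsal telencephalon, from which the cerebral cortex forms, of C57BL/6 mouse embryos at E12.5 from crosses between Kat6a+/- mice. KAT6A is a histone lysine acetyltransferase, and the Kat6a- allele lacks exons and carries a premature stop codon. Cells of each genotype, Kat6a+/+, Kat6a+/- and Kat6a-/-, were sequenced either proliferating, after 3 days in uncoated dishes with the growth factors FGF2 and EGF, or differentiating, after 3 days attached to poly-L-ornithine and laminin in medium with serum. The 6 groups held 4 libraries each, and the litter labels named 5 litters among the proliferating and 7 among the differentiating libraries. Different RNA extraction kits were used for the 2 conditions, so kit and condition cannot be told apart. In the proliferating condition Kat6a+/+ cells grew as floating spheres by the account of the study, whereas most Kat6a-/- cells adhered to the plastic, so growth form went with genotype there and its part in the collagen levels was not tested.

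Collagens are extracellular proteins in which 3 alpha chains wind into a triple helix. Fibrillar collagens assemble into the fibres of connective tissue, and basement membrane collagens form the sheet that separates epithelia and vessels from stroma and to which the endfeet of radial glia attach at the brain surface. The remaining families include chains that decorate fibrils (FACIT collagens), beaded filaments, short-chain networks and transmembrane chains. Chains are hydroxylated, folded and glycosylated in the endoplasmic reticulum, trimmed by secreted proteases, cross-linked by lysyl oxidases and bound by integrin and discoidin domain receptors.

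Promoter sequence is shown for 4 collagen genes whose messages are described below: the head-to-head pair Col4a5 and Col4a6, Col5a1, which rose in differentiating Kat6a-/- cells and not in proliferating ones, and Col9a1, which went the other way. The stretches are the bases before the first exon in the RefSeq promoter windows, 250 bases before to 50 after each start, found once each in the GRCm39 genome and written 5′ to 3′ on the strand of the gene. Capitals mark 3 motifs searched on both strands: the CCAAT box, the GC box with the letters GGGCGG, and the TATA box with the letters TATAAA. The matches in these stretches did not overlap.
Col4a5, chrX:140258165-140258353, plus strand: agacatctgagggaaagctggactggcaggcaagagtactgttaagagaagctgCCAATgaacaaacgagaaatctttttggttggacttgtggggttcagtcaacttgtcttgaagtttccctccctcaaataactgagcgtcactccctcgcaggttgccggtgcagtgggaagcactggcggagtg
Col4a6, chrX:140257073-140257322, minus strand: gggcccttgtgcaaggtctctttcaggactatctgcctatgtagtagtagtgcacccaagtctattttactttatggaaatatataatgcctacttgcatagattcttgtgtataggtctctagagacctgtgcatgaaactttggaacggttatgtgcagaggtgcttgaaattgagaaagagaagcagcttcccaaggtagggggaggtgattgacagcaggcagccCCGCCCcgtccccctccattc
Col5a1, chr2:27776187-27776396, plus strand: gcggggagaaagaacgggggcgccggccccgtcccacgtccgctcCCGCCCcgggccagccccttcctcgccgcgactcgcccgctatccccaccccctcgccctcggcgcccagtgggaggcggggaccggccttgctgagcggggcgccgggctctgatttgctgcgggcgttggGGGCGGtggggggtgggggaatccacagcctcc
Col9a1, chr1:24216441-24216690, plus strand: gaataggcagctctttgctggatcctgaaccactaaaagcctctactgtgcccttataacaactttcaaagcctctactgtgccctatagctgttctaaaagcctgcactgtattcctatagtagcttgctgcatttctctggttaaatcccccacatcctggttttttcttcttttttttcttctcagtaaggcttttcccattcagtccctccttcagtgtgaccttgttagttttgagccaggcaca
The stretch of Col4a5 held a CCAAT, that of Col4a6 a GGGCGG on the opposite strand, that of Col5a1 a GGGCGG on each strand, and that of Col9a1 none of the 3 motifs. Past the end of its stretch, Col4a5 also had a GGGCGG match at position -30 from its start, with both strands searched. A second Col9a1 window, at a start further downstream, held a CCAAT at position -18 from that start. The 250 bases before each start were searched for 35 collagen genes with 38 promoters. CCAAT occurred on either strand in 13 promoters, GGGCGG in 22 and TATAAA in 5. Among all 32851 RefSeq promoters searched in the same way the shares were 33.8%, 32.7% and 12.4%. Col1a1, Col5a2 and Col12a1 were not in that table.

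Libraries held 7826660 to 40838203 counts. Levels below are counts-per-million values (CPM) with TMM scaling, and levels compared between genes are CPM per kilobase of gene length (RPKM). A gene was called where the false discovery rate (FDR) of a limma fit over all genes tested in that condition was under 0.05, and fold-changes are log2 values with their standard error. Each p-value of a fit within 1 condition measures the spread between libraries of separate embryos, some of which share a litter. Several libraries of the 2 conditions carry the same litter and embryo number. The fit of all 24 libraries did not treat them as paired. Counts over the whole Kat6a gene do not check the genotype, because the deletion covers only some exons. Neural stem cell markers were present in every library, with a summed level of 7135 to 8428 CPM in proliferating and 7162 to 13490 CPM in differentiating cells. Y-linked reads above 100 CPM, the sign of a male embryo, were found in 3 of 4 Kat6a+/+, 1 of 4 Kat6a+/- and 1 of 4 Kat6a-/- libraries in each condition. Differentiating Kat6a-/- replicate 2 stands apart below, and where leaving out a Kat6a-/- library ended a call in those cells the value without it is given.

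Enough reads for a test were found for 25 of the 44 collagen genes in proliferating and for 36 in differentiating cells. The 8 genes tested in neither condition were the fibrillar Col3a1 and Col24a1 and the others Col6a4, Col6a5, Col6a6, Col10a1, Col13a1 and Col17a1. Col3a1, a chain of connective tissue fibres, stayed between 0.0481 and 0.216 CPM in the 4 differentiating Kat6a+/+ libraries and at 0.069, 0.157, 0.781 and 0.385 CPM in the Kat6a-/- libraries. The 11 genes tested only in differentiating cells were Col1a1, Col1a2, Col4a3, Col4a4, Col6a1, Col6a2, Col6a3, Col8a1, Col8a2, Col14a1 and Col15a1.

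In proliferating Kat6a+/+ cells the most abundant collagen message per length was Col5a2, a fibrillar chain of collagen V, at 34.7 ± 3.18 RPKM (SD, n = 4). Col9a3, a chain of the FACIT collagen IX, followed at 20.4 ± 4.28 RPKM, Col28a1 at 15.6 ± 5.96 RPKM, Col16a1 at 14.1 ± 1.43 RPKM and Col12a1 at 9.2 ± 5.14 RPKM. The spread of Col28a1 overlapped those of Col9a3, Col16a1 and Col12a1, while Col5a2 stood clear of them. In differentiating Kat6a+/+ cells Col4a5, a basement membrane chain, led at 77.2 ± 19.7 RPKM, ahead of Col5a2 at 30.8 ± 12.4 RPKM, Col9a3 at 24.3 ± 7.43 RPKM, Col8a2 at 15.9 ± 5.57 RPKM and Col4a6 at 14.7 ± 5.87 RPKM. The spread of Col4a5 did not reach that of Col5a2, whereas the neighbours after it overlapped.

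Most of the collagen messages that differed between the conditions were higher in differentiating Kat6a+/+ cells. The comparison of the conditions in Kat6a+/+ libraries, from a limma fit of all 24 libraries, called 18 of 35 collagen genes higher and 3 lower in differentiating cells, against 36.7% of all 13590 genes higher and 36.2% lower. Basement membrane chains made up 7 of the 18. Col4a5 was higher by 3.54 ± 0.30 (SE), an 11.7-fold difference (FDR = 1.27e-09), and Col4a6, its neighbour on chromosome X, by 5.00 ± 0.57 or 32.1-fold. Col4a1 and Col4a2, the ubiquitous basement membrane pair, were higher by 1.52 and 2.31, and Col4a3 and Col4a4 by 3.18 and 1.53. Col15a1 had no count in the proliferating and 189 counts in the differentiating Kat6a+/+ libraries. With a floor of 3 counts over the proliferating group it was 57.9-fold higher, and the lower 95% limit of the ratio from counting error alone was 46.6. The short-chain genes Col8a1 and Col8a2 had 3 counts each in the proliferating libraries, and the ratios of their levels were 776 (95% interval 265 to 3760) and 1770 (604 to 8560), where the intervals cover counting error only. Col28a1, a von Willebrand domain collagen, fell by 6.67 on the log2 scale (SE 1.18, FDR = 3.4e-05), from 37.1 to 92.7 CPM in proliferating to at most 1.1 CPM in differentiating Kat6a+/+ cells. Col16a1 fell by 2.70 and Col19a1 by 1.42. The remaining genes called higher were Col1a2 (3.76), Col5a1 (0.50), Col6a2 (1.99), Col9a1 (2.95), Col9a2 (2.24), Col11a1 (1.08), Col11a2 (2.43), Col22a1 (3.80) and Col23a1 (2.24).

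**Figure D1:**
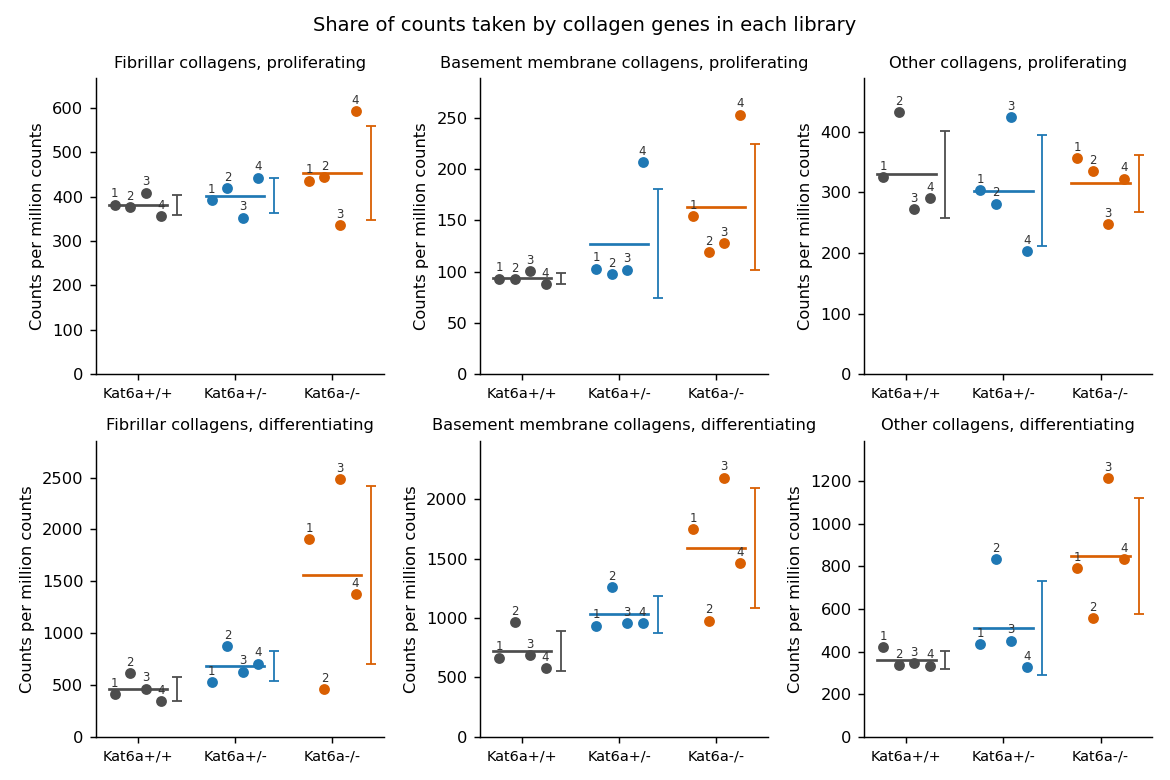
Summed collagen CPM, as a share of all counts, in each library (points), by class, genotype and condition, with the group mean (line) and SD (bar, n = 4). In differentiating cells the Kat6a-/- points are spread most, and the lowest Kat6a-/- fibrillar value, 458.3, lies among the Kat6a+/+ values.

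As a share of all counts of a library, without TMM scaling, collagen messages made up 804 ± 70.7 CPM in proliferating Kat6a+/+ cells, 832 ± 40.6 in Kat6a+/- and 931 ± 188 in Kat6a-/- cells (SD, n = 4 each). In differentiating cells the shares were 1540 ± 274, 2220 ± 501 and 4000 ± 1620 CPM. In the Kat6a-/- libraries singly they were 4444, 1995, 5883 and 3671 CPM, against 1260 to 1919 in Kat6a+/+ libraries. Every differentiating Kat6a-/- library thus lay above the Kat6a+/+ libraries, replicate 2 by the least. These are bulk samples, in which fewer or more cells of a type cannot be told apart from less or more RNA per cell.

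By class, proliferating cells differed in the basement membrane collagens. Their share was 93.05, 92.65, 100.5 and 87.85 CPM in Kat6a+/+ libraries and 153.8, 118.8, 127.9 and 253.2 CPM in Kat6a-/- libraries, and the groups did not overlap. The fibrillar share was 381 ± 21.8 CPM in Kat6a+/+ and 452 ± 106 in Kat6a-/- libraries, and the share of the other collagens was 330 ± 71.6 and 315 ± 46.9 CPM. For both, the differences were within the spread.

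In differentiating cells all 3 class means were higher without KAT6A. The fibrillar share was 410.0, 616.6, 465.1 and 346.9 CPM in Kat6a+/+ libraries, 527.4, 873.5, 629.2 and 704.9 in Kat6a+/- libraries and 1906, 458.3, 2485 and 1373 in Kat6a-/- libraries. Replicate 2 of the Kat6a-/- group lay inside the Kat6a+/+ range, and the others lay above every Kat6a+/+ and Kat6a+/- library. The basement membrane share was 578.3 to 964.6 CPM in Kat6a+/+ libraries and 1746, 979.3, 2182 and 1463 CPM in Kat6a-/- libraries, and that of the other collagens was 334.5 to 422.3 and 791.2, 557.5, 1216 and 835.2 CPM. In both of these classes replicate 2 was again the lowest Kat6a-/- library, and it still lay above the Kat6a+/+ range.

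In proliferating Kat6a-/- vs. Kat6a+/+ NSPCs, 10 of 25 collagen genes rose and 2 fell, while 16.2% of the 12276 genes tested rose and 13.8% fell. Of the basement membrane chains, 4 of 5 rose and 1 fell, of the fibrillar chains 2 of 7 rose and 1 fell, and of the other chains 4 of 13 rose and none fell. The median log2 fold-change was 0.84 for the basement membrane, 0.02 for the fibrillar and 0.17 for the other collagens, against -0.005 for all genes. All 4 Kat6a-/- libraries lay above all 4 Kat6a+/+ libraries for 7 of the 25 genes and below for 2, compared with 15.9% and 14.9% of all genes tested.

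Col4a1 (Entrez 12826, mm39 chromosome 8, 11248423-11362826, minus strand) and Col4a2, which starts head to head with it with an overlap of 356 bases, encode the chains of the most widespread collagen IV. Col4a1 was at 20.8, 21.7, 21.5 and 19.4 CPM in proliferating Kat6a+/+ libraries and at 43.5, 36.3, 31.6 and 43.5 CPM in Kat6a-/- libraries, a rise of 0.84 ± 0.10 (FDR = 0.000123). Col4a2 was at 7.01, 8.84, 9.09 and 7.71 CPM and at 20.0, 18.1, 14.9 and 16.6 CPM, a rise of 1.11 ± 0.11 (FDR = 3.81e-05). For both genes every Kat6a-/- library was above every Kat6a+/+ library. Reads in the overlap can be told apart only by strand, and the strand setting of the counting is not given in the sources used here. Per length, Col4a1 was 2.3 to 2.89 times Col4a2 in Kat6a+/+ and 1.95 to 2.54 times in Kat6a-/- libraries.

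Col4a5 (Entrez 12830, chromosome X, 140258354-140472231, plus strand) and Col4a6 (Entrez 94216, chromosome X, 139948399-140257072, minus strand) encode the X-linked collagen IV chains and start 1281 bases apart. Col4a5 was at 38.4, 39.0, 50.7 and 45.5 CPM in proliferating Kat6a+/+ libraries and at 79.2, 57.0, 66.0 and 150.0 CPM in Kat6a-/- libraries, a rise of 0.83 ± 0.28 (FDR = 0.0421). Col4a6 was at 2.54, 2.35, 5.5 and 2.57 CPM and at 10.4, 4.85, 9.52 and 25.9 CPM, a rise of 1.72 ± 0.50 (FDR = 0.0218). The highest Kat6a-/- library of both genes was replicate 4, from litter 5063. The Kat6a+/- library from that litter was also the highest of its group, at 114.0 CPM for Col4a5 and 17.6 CPM for Col4a6, and that litter had no Kat6a+/+ library. With litter as a fixed term the estimate for Col4a6 was 0.84 (FDR = 0.17) and that for Col4a5 was 0.49 (FDR = 0.0233). With presence of Y-linked reads as a term, the estimate for Col4a5 was 0.77 (FDR = 0.103) and that for Col4a6 was 1.72 (FDR = 0.0357). With edgeR the FDR of Col4a5 was 0.0511. The call of Col4a5 was lost with 7 of the 12 libraries left out singly: Kat6a+/+ replicates 1, 2 and 4 (0.77, 0.75 and 0.84), Kat6a+/- replicate 2 (0.82) and Kat6a-/- replicates 1, 3 and 4 (0.79, 0.94 and 0.67, FDR up to 0.148). That of Col4a6 was lost without Kat6a+/+ replicate 1 (1.58, FDR = 0.101) and without Kat6a-/- replicate 4 (1.48, FDR = 0.0759). The part of litter or sex in these differences was not tested beyond these fits.

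Col18a1 (Entrez 12822), the heparan sulphate collagen from which endostatin is released, was the basement membrane chain that fell in proliferating cells. It was at 24.6, 21.8, 14.5 and 13.1 CPM in Kat6a+/+ libraries, 28.9, 14.3, 22.0 and 40.3 CPM in Kat6a+/- libraries and 5.54, 4.85, 8.08 and 17.8 CPM in Kat6a-/- libraries. The log2 fold-change was -1.09 ± 0.35 (FDR = 0.0337), and replicate 4 of the Kat6a-/- group lay inside the Kat6a+/+ range. The call was lost with edgeR (FDR = 0.0785), with no litter block (FDR = 0.0501) and with the replicate block (FDR = 0.0883). It was also lost without each Kat6a-/- library in turn (FDR = 0.078, 0.0678, 0.0795 and 0.0528) and without Kat6a+/+ replicate 1 (FDR = 0.0842) or 2 (FDR = 0.0535).

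Among the fibrillar chains, Col5a3 and Col11a1 rose in proliferating cells. Col5a3, the least widely expressed collagen V chain, was at 28.0, 36.1, 33.8 and 34.4 CPM in Kat6a+/+ libraries and at 94.1, 78.1, 52.0 and 127.0 CPM in Kat6a-/- libraries, a rise of 1.32 ± 0.20 (FDR = 0.00059) without overlap. Col11a1, a minor chain of cartilage fibrils, was at 33.9, 39.2, 61.2 and 48.2 CPM and at 61.9, 72.1, 53.1 and 64.3 CPM, a rise of 0.48 ± 0.15 (FDR = 0.0273) with overlap. It was not called without Kat6a+/+ replicate 1 (0.32, FDR = 0.0958) or 2 (0.43, FDR = 0.0698), nor without Kat6a-/- replicate 2 (0.43, FDR = 0.0644) or 4 (0.51, FDR = 0.0525). Col2a1, the main cartilage fibril chain, fell by 2.35 on the log2 scale (SE 0.63, FDR = 0.0142). Its levels were low, at 0.839, 1.92, 0.6 and 1.41 CPM in Kat6a+/+ libraries and 0.231, 0.131, 0.111 and 0.308 CPM in Kat6a-/- libraries, which are 1 to 3 reads in each of the latter. Without Kat6a-/- replicate 3 or 4 it was not called (FDR = 0.0603 and 0.0556). Col5a1 and Col5a2, the chains of the widespread collagen V, were not called. Col5a2 was at 243.0, 217.0, 252.0 and 207.0 CPM in Kat6a+/+ libraries and at 216.0, 226.0, 181.0 and 304.0 CPM in Kat6a-/- libraries (-0.05 ± 0.12, FDR = 0.803). Col5a1 was at 63.2, 75.6, 49.0 and 54.0 CPM and at 64.5, 64.8, 45.5 and 69.6 CPM (0.02 ± 0.13, FDR = 0.931). For both genes the groups overlapped widely. Col11a2 had a log2 fold-change of 0.17 (FDR = 0.605) and Col27a1 of -0.05 (FDR = 0.919), and neither was called.

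The 3 chains of collagen IX, which coats cartilage fibrils, all rose in proliferating cells. Col9a3 was at 56.7, 49.7, 78.9 and 56.8 CPM in Kat6a+/+ libraries and at 178.0, 138.0, 107.0 and 133.0 CPM in Kat6a-/- libraries, a rise of 1.16 ± 0.13 (FDR = 7.45e-05). Col9a2 was at 1.8, 2.59, 3.0 and 1.67 CPM and at 5.31, 6.29, 4.54 and 7.09 CPM (1.45 ± 0.27, FDR = 0.00172). Neither overlapped between the genotypes. Col9a1 was at 0.197, 0.481, 0.899 and 0.514 CPM and at 1.96, 2.23, 1.88 and 0.411 CPM, a rise of 1.88 ± 0.55 (FDR = 0.0213) in which Kat6a-/- replicate 4 stayed at the Kat6a+/+ level. It was 1.23 without Kat6a+/+ replicate 1 (FDR = 0.139) and 1.72 without Kat6a-/- replicate 3 (FDR = 0.0593). The Col9a1 levels were low, at 8, 8, 9 and 4 reads in Kat6a+/+ libraries and 17, 17, 17 and 4 reads in Kat6a-/- libraries. Col26a1, an EMI domain collagen, was at 6.81, 6.5, 11.3 and 7.19 CPM and at 35.6, 24.6, 14.0 and 32.8 CPM, a rise of 1.59 ± 0.28 (FDR = 0.00158). Its Kat6a-/- libraries were all above the Kat6a+/+ libraries. Col12a1, a fibril-associated chain of tension-bearing tissue, was at 95.4, 196.0, 65.4 and 74.3 CPM in Kat6a+/+ libraries and at 35.3, 39.3, 28.5 and 43.5 CPM in Kat6a-/- libraries. These groups did not overlap, but the log2 fold-change of -1.35 ± 0.48 was not called (FDR = 0.055), although edgeR (FDR = 0.0221) and DESeq2 (FDR = 0.00679) called it. The other tested genes were not called, with log2 fold-changes of 0.24 for Col7a1, -0.21 for Col16a1, -0.84 for Col19a1, -0.02 for Col20a1, 0.17 for Col22a1, -0.19 for Col23a1, 0.55 for Col25a1 and -0.77 for Col28a1.

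**Figure D2:**
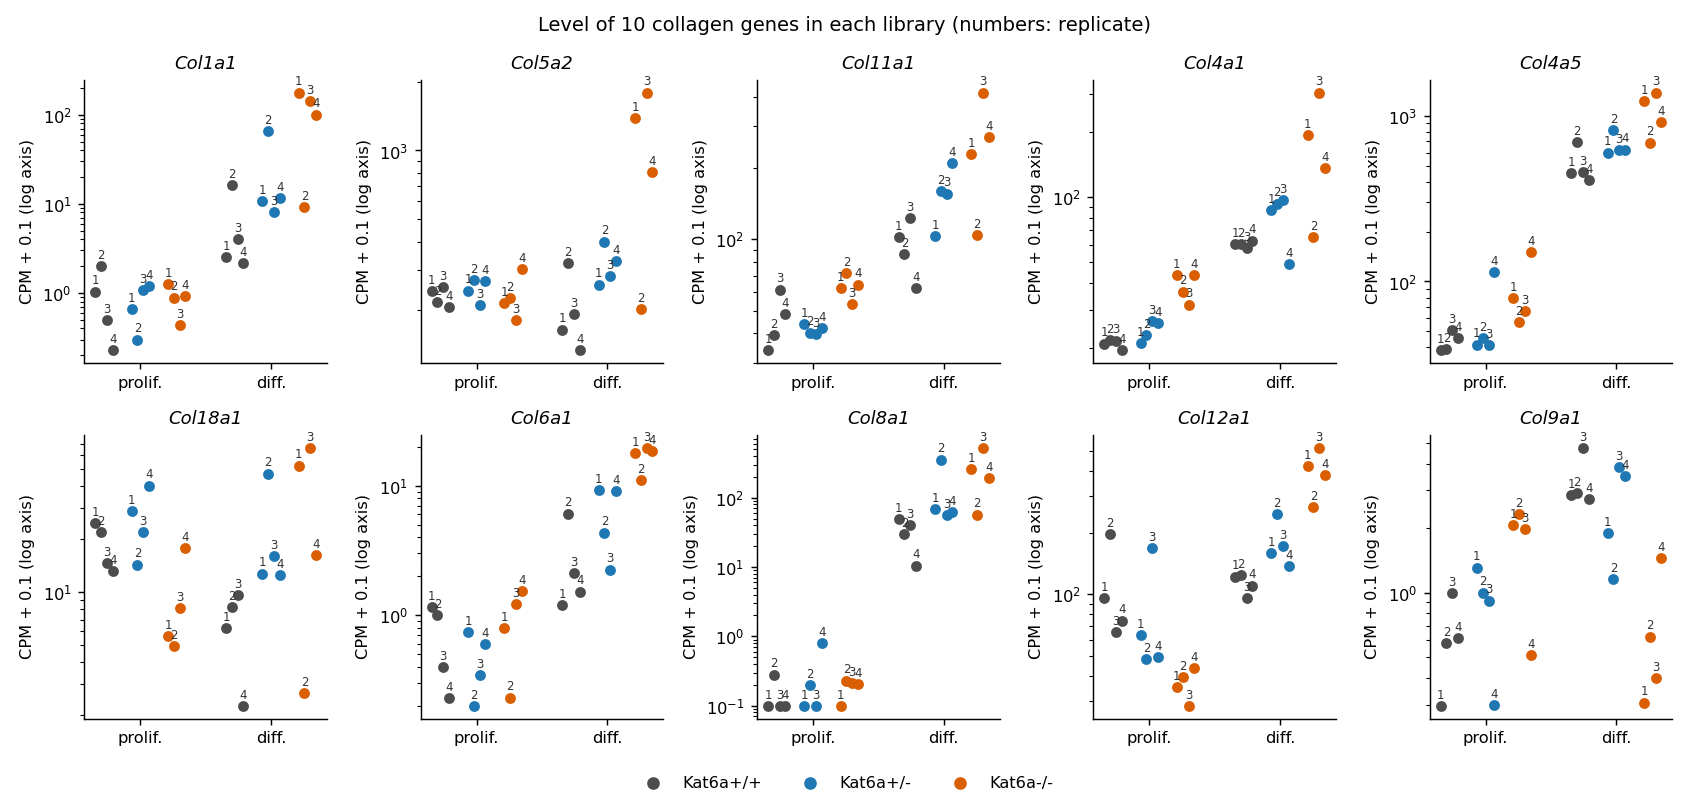
Levels of 10 collagen genes in each library (points, CPM + 0.1, log axis), by genotype (colour) and condition, with the replicate number beside each point. Col12a1 in Kat6a-/- libraries lies below the Kat6a+/+ libraries in proliferating cells and above them in differentiating cells.

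The rises in proliferating cells were most stable for 6 genes. Col4a1, Col4a2, Col5a3, Col9a2, Col9a3 and Col26a1 were called under each of the 8 alternative settings and with each of the 12 libraries left out. The number of collagen genes called was between 7 and 13 when single libraries were left out, 7 without Kat6a-/- replicate 4, 8 without Kat6a-/- replicate 3 and 8 without Kat6a+/+ replicate 1. The share of all genes called in those fits was not set beside these counts. No collagen gene was called lower by limma without Kat6a-/- replicate 3 or replicate 4.

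Markers of other cell types also differed between the proliferating genotypes. Among all genes tested in these cells, 16.2% were called higher and 13.8% lower. Astrocyte markers summed to 186.7 to 228.5 CPM in Kat6a+/+ libraries and 334.1 to 437.4 CPM in Kat6a-/- libraries, and 3 of the 5 tested were called higher. Oligodendrocyte markers summed to 2121 to 2475 and 2486 to 2889 CPM, with 1 of 5 called higher, near the share of all genes. Microglia markers summed to 1.259 to 1.399 and 6.577 to 8.39 CPM, with the 1 tested gene of 6 called higher. Of the 6, 5 (Cx3cr1, Csf1r, Aif1, Ptprc and Tyrobp) were under 1 CPM in every proliferating library. Cx3cr1 and Tyrobp were at 0 in all of them, and only P2ry12 reached 1 CPM in any, so this sum does not describe the marker set. None of these sums overlapped between Kat6a+/+ and Kat6a-/-, but the oligodendrocyte sums lay only just apart, at 2475 and 2486 CPM. Of all genes tested, 15.9% had all 4 Kat6a-/- libraries above all 4 Kat6a+/+ libraries and 14.9% had them below. Neuron markers lay at 819.0 to 1049 and 1045 to 1131 CPM and endothelial markers at 7.836 to 14.32 and 4.008 to 7.996 CPM, both with overlap. Fibroblast and meningeal markers lay at 108.3 to 126.0 and 114.5 to 170.5 CPM and pericyte and smooth muscle markers at 158.7 to 246.2 and 157.0 to 211.7 CPM, again with overlap. The part of these cell types in the collagen levels was not tested.

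In differentiating Kat6a-/- vs. Kat6a+/+ NSPCs, 19 of 36 collagen genes rose and 5 fell, while 26.7% of the 13339 genes tested rose and 27.7% fell. Of the fibrillar chains 7 of 9 rose, of the basement membrane chains 5 of 8 rose and of the other chains 7 of 19 rose and 5 fell. The median log2 fold-change was 1.40 for fibrillar, 1.66 for basement membrane and 0.41 for other collagens, and -0.016 for all genes. This fit weights each library by its estimated quality, and replicate 3 carried 68.98% of the weight of the Kat6a-/- group, replicate 1 16.75%, replicate 4 10.05% and replicate 2 4.22%. Most of these calls were lost without replicate 1 or without replicate 3. Without Kat6a-/- replicate 3, 2 collagen genes were called, Col12a1 higher and Col9a1 lower, and without replicate 1, 4 were called, Col4a5, Col4a6 and Col12a1 higher and Col9a1 lower. Without replicate 2 the count was 30 and without replicate 4 it was 28. The weights and the FDR were estimated anew in each of these fits. The share of all genes called in them was not set beside these counts, so the losses are not shown to be particular to the collagens. Unweighted, 15 genes rose and 2 fell, and edgeR called the same numbers, again without the share of all genes beside them.

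**Figure D3:**
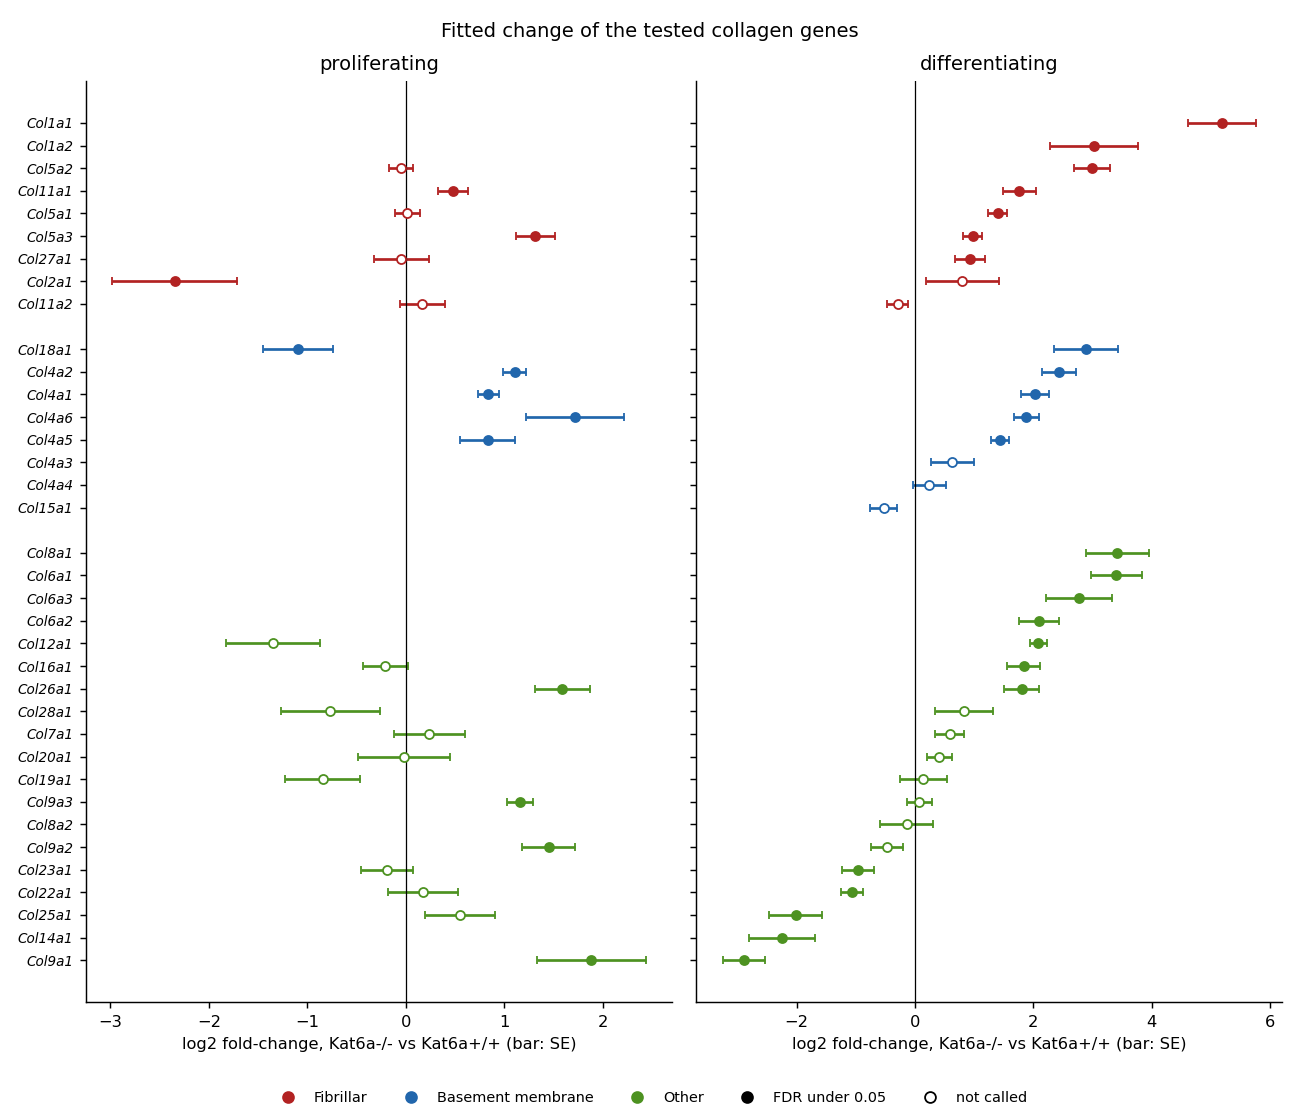
Log2 fold-change of each tested collagen gene in Kat6a-/- vs. Kat6a+/+ cells (points, with bars of 1 standard error), by class and condition, with filled points for FDR under 0.05. In differentiating cells 24 of 36 points are filled and in proliferating cells 12 of 25.

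Col1a1, Col1a2 and Col5a2 had the largest fold-changes of the fibrillar chains. Col1a1 (Entrez 12842, chromosome 11, 94827050-94843868, plus strand), the main chain of connective tissue fibres, was at 2.41, 16.2, 3.95 and 2.08 CPM in Kat6a+/+ libraries, 10.6, 65.3, 7.99 and 11.5 CPM in Kat6a+/- libraries and 177.0, 9.11, 142.0 and 100.0 CPM in Kat6a-/- libraries. Replicates 1, 3 and 4 of the Kat6a-/- group were above every other library, and replicate 2 was below the highest Kat6a+/+ library. The rise was 5.19 ± 0.57, or 36.4-fold (FDR = 2.16e-05), and the estimate was 3.12 without Kat6a-/- replicate 3 (FDR = 0.168) and 3.35 without replicate 1 (FDR = 0.104). Col1a2, its partner chain in the collagen I trimer, was far lower, at 1.15, 1.19, 0.963 and 0.333 CPM in Kat6a+/+ libraries and 1.03, 0.524, 16.9 and 5.39 CPM in Kat6a-/- libraries. Only replicates 3 and 4 lay above the Kat6a+/+ range, and the rise of 3.02 ± 0.74 (FDR = 0.00449) became -0.07 without replicate 3 (FDR = 0.981) and 1.62 without replicate 1 (FDR = 0.425).

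Col5a2 (Entrez 12832, chromosome 1, 45412554-45542442, minus strand) was the most abundant fibrillar message per length in every group. It was at 165.0, 321.0, 193.0 and 134.0 CPM in differentiating Kat6a+/+ libraries, 259.0, 400.0, 283.0 and 329.0 CPM in Kat6a+/- libraries and 1380, 203.0, 1790 and 804.0 CPM in Kat6a-/- libraries. Replicate 2 lay inside the Kat6a+/+ range, although replicate 1 of the same litter was at 1380 CPM and Kat6a+/+ replicate 3, also of that litter, at 193.0 CPM. The rise was 3.00 ± 0.30, or 7.99-fold (FDR = 1.22e-05), and 1.27 without Kat6a-/- replicate 3 (FDR = 0.202) and 1.70 without replicate 1 (FDR = 0.104). Per length, Col5a2 stood at 158 ± 105 RPKM in Kat6a-/- cells, next to Col4a5 at 162 ± 47.6 RPKM and ahead of Col8a1 at 50 ± 37.8 RPKM.

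Col5a1 was at 77.4, 110.0, 74.2 and 86.8 CPM in Kat6a+/+ libraries and 224.0, 100.0, 231.0 and 139.0 CPM in Kat6a-/- libraries, a rise of 1.40 ± 0.16 (FDR = 2.29e-05) with replicate 2 inside the Kat6a+/+ range. It was 0.75 without Kat6a-/- replicate 3 (FDR = 0.149) and 0.90 without replicate 1 (FDR = 0.077). Col11a1 was at 102.0, 86.8, 123.0 and 61.9 CPM and at 229.0, 104.0, 417.0 and 271.0 CPM, a rise of 1.77 ± 0.27 (FDR = 0.0002) with the same overlap, and 0.59 without replicate 3 (FDR = 0.516) and 1.05 without replicate 1 (FDR = 0.236). Col5a3 rose by 0.97 ± 0.16 (FDR = 0.000262), and by 0.82 without replicate 3 (FDR = 0.182) and 0.81 without replicate 1 (FDR = 0.142), where it was not called. Col27a1 was at 7.23, 9.52, 7.22 and 7.08 CPM in Kat6a+/+ libraries and 9.72, 4.14, 17.7 and 9.94 CPM in Kat6a-/- libraries, and replicate 2 was the lowest of all 8. Its log2 fold-change of 0.93 ± 0.25 (FDR = 0.00757) was called in only 2 of the 9 alternative settings (FDR up to 0.81), and was -0.29 without replicate 3 (FDR = 0.732) and 0.19 without replicate 1 (FDR = 0.853). The cartilage chains Col2a1 and Col11a2 were not called. Col2a1 was at 3.29, 2.7, 4.81 and 1.12 CPM in Kat6a+/+ libraries and at 6.21, 0.419, 7.45 and 1.99 CPM in Kat6a-/- libraries (0.80 ± 0.61, FDR = 0.287), and Col11a2 had a log2 fold-change of -0.29 (FDR = 0.182).

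The basement membrane genes that rose were the pairs Col4a1 with Col4a2 and Col4a5 with Col4a6, and Col18a1. Col4a1 was at 60.5, 60.3, 57.6 and 62.7 CPM in Kat6a+/+ libraries, 86.6, 93.1, 96.4 and 48.9 CPM in Kat6a+/- libraries and 193.0, 65.1, 304.0 and 136.0 CPM in Kat6a-/- libraries, a rise of 2.02 ± 0.24 (FDR = 3.02e-05) without overlap between Kat6a+/+ and Kat6a-/-. Replicate 2 was only just above the Kat6a+/+ libraries, and the estimate was 0.74 without Kat6a-/- replicate 3 (FDR = 0.225) and 1.19 without replicate 1 (FDR = 0.101). Col4a2 was at 36.0, 46.5, 34.8 and 39.3 CPM in Kat6a+/+ libraries and 189.0, 34.4, 250 and 101.0 CPM in Kat6a-/- libraries, a rise of 2.44 ± 0.28 (FDR = 3.1e-05) in which replicate 2 was the lowest library of both groups. It was 0.85 without replicate 3 (FDR = 0.329) and 1.28 without replicate 1 (FDR = 0.167). Per length Col4a1 was 1.26 to 1.63 times Col4a2 in Kat6a+/+ libraries and 0.99, 1.84, 1.18 and 1.31 times in Kat6a-/- libraries.

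Col4a5 was at 450.0, 692.0, 459.0 and 409.0 CPM in differentiating Kat6a+/+ libraries and at 1230, 689.0, 1380 and 917.0 CPM in Kat6a-/- libraries, a rise of 1.44 ± 0.15 (FDR = 1.14e-05). Replicate 2 lay just below the highest Kat6a+/+ library. Col4a6 was at 90.2, 148.0, 100.0 and 53.2 CPM in Kat6a+/+ libraries, 181.0, 215.0, 128.0 and 226.0 CPM in Kat6a+/- libraries and 270.0, 242.0, 365.0 and 318.0 CPM in Kat6a-/- libraries. Its Kat6a-/- libraries, replicate 2 included, were all above the other libraries, and the rise was 1.88 ± 0.21 (FDR = 2.3e-05). Without Kat6a-/- replicate 3 neither was called, Col4a5 at 0.88 (FDR = 0.0825) and Col4a6 at 1.51 (FDR = 0.0679). With presence of Y-linked reads as a term the estimates of these X-linked genes were 1.32 (FDR = 0.00165) and 1.85 (FDR = 0.00183). The ratio of Col4a5 to Col4a6 per length was 4.68 to 7.85 in Kat6a+/+ libraries and 4.64, 2.91, 3.87 and 2.95 in Kat6a-/- libraries.

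Col18a1, which fell in proliferating cells, rose in differentiating cells. It was at 6.19, 8.11, 9.58 and 2.17 CPM in Kat6a+/+ libraries, 12.7, 47.2, 16.0 and 12.4 CPM in Kat6a+/- libraries and 52.5, 2.57, 65.9 and 16.2 CPM in Kat6a-/- libraries. The rise was 2.88 ± 0.54 or 7.38-fold (FDR = 0.000814), and the estimate was 0.38 without replicate 3 (FDR = 0.879) and 0.96 without replicate 1 (FDR = 0.633). It was not called in 4 of 9 alternatives, which were edgeR (FDR = 0.0548), voom with a litter block (1.60, FDR = 0.344), litter as a fixed term (FDR = 0.153) and no quality weights (FDR = 0.176). Col4a3 (0.63, FDR = 0.165), Col4a4 (0.24, FDR = 0.482) and Col15a1 (-0.53, FDR = 0.0623) were not called.

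Of the other collagens, Col12a1 was the most stable riser. Col12a1 (Entrez 12816, chromosome 9, 79506268-79626135, minus strand) was at 122.0, 124.0, 95.9 and 110.0 CPM in Kat6a+/+ libraries, 158.0, 245.0, 171.0 and 137.0 CPM in Kat6a+/- libraries and 422.0, 266.0, 516.0 and 381.0 CPM in Kat6a-/- libraries. The 3 genotypes did not overlap, replicate 2 of the Kat6a-/- group included. The rise was 2.09 ± 0.14, or 4.25-fold (FDR = 2.49e-06), and it was called with each library left out, at 1.54 without Kat6a-/- replicate 3 (FDR = 0.00781) and 1.73 without replicate 1 (FDR = 0.00389).

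The beaded filament chains Col6a1, Col6a2 and Col6a3, which link cells to the interstitial matrix, all rose in differentiating cells. Col6a1 was at 1.1, 6.0, 2.02 and 1.42 CPM in Kat6a+/+ libraries, 9.13, 4.24, 2.15 and 9.02 CPM in Kat6a+/- libraries and 17.8, 11, 19.4 and 18.4 CPM in Kat6a-/- libraries. All Kat6a-/- libraries were above all others, with a rise of 3.40 ± 0.43 or 10.5-fold (FDR = 5.38e-05), and 2.94 without replicate 3 (FDR = 0.0906) and 3.04 without replicate 1 (FDR = 0.0577). Col6a2 was at 1.21, 1.68, 1.16 and 0.417 CPM in Kat6a+/+ libraries and 5.86, 1.89, 5.35 and 3.14 CPM in Kat6a-/- libraries, a rise of 2.09 ± 0.34 (FDR = 0.000288) without overlap, and 1.36 without replicate 3 (FDR = 0.303) and 1.47 without replicate 1 (FDR = 0.214). Col6a3 was at 0.11, 0.865, 0.289 and 0 CPM in Kat6a+/+ libraries and 1.52, 0.105, 2.46 and 0.898 CPM in Kat6a-/- libraries, with replicate 2 inside the Kat6a+/+ range. Its rise of 2.77 ± 0.55 (FDR = 0.0011) was called in 3 of 9 alternatives (FDR up to 0.19), and was 0.76 without replicate 3 (FDR = 0.746) and 1.33 without replicate 1 (FDR = 0.506).

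Col8a1, a short-chain collagen of vessel walls and corneal endothelium, was at 48.9, 29.9, 40.3 and 10.4 CPM in Kat6a+/+ libraries, 67.6, 353.0, 56.5 and 62.1 CPM in Kat6a+/- libraries and 257.0, 56.7, 517.0 and 192.0 CPM in Kat6a-/- libraries. Kat6a-/- did not overlap with Kat6a+/+, but Kat6a+/- replicate 2 was above 3 of the Kat6a-/- libraries. The rise was 3.42 ± 0.53 or 10.7-fold (FDR = 0.000206), and 1.60 without replicate 3 (FDR = 0.396) and 2.25 without replicate 1 (FDR = 0.207). Its partner Col8a2 was not called (-0.14, FDR = 0.811). Col16a1 rose by 1.83 ± 0.28 (FDR = 0.000188) and Col26a1 by 1.81 ± 0.30 (FDR = 0.000309). Neither was called without replicate 3, at 0.92 (FDR = 0.382) and 0.74 (FDR = 0.423), or without replicate 1, at 1.05 (FDR = 0.265) and 1.22 (FDR = 0.184).

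Lower in differentiating Kat6a-/- cells were Col9a1, Col14a1, Col22a1, Col23a1 and Col25a1. Col9a1 (Entrez 12839, chromosome 1, 24216691-24291765, plus strand) was at 2.74, 2.81, 4.62 and 2.62 CPM in Kat6a+/+ libraries, 1.79, 1.06, 3.75 and 3.41 CPM in Kat6a+/- libraries and 0.207, 0.524, 0.3 and 1.35 CPM in Kat6a-/- libraries. The Kat6a-/- libraries were all below the Kat6a+/+ libraries, and the fall of -2.89 ± 0.36 (FDR = 4.45e-05) was called with each library left out. It rests on few reads, 50, 52, 96 and 63 in Kat6a+/+ libraries and 3, 10, 5 and 21 in Kat6a-/- libraries. Col22a1, a tissue junction chain, was at 13.5, 13.7, 17.1 and 12 CPM in Kat6a+/+ libraries and 6.14, 18.4, 6.49 and 7.76 CPM in Kat6a-/- libraries (-1.07 ± 0.19, FDR = 0.000452). Col23a1, a transmembrane chain, was at 7.12, 10.1, 7.41 and 7.62 CPM and at 4.55, 11.3, 3.36 and 4.17 CPM (-0.96 ± 0.28, FDR = 0.0106). In both genes replicate 2 was the highest of all 8 libraries and the other Kat6a-/- libraries were below every Kat6a+/+ library. Col25a1, a neuronal transmembrane chain, fell by 2.02 on the log2 scale (SE 0.44, FDR = 0.0022) and Col14a1 by 2.25 (SE 0.56, FDR = 0.00451), both from under 2 CPM. These 4 calls were less stable than that of Col9a1, and each was lost without Kat6a-/- replicate 1 or replicate 3. Without replicate 3 the estimates were -0.27 for Col22a1 (FDR = 0.748), 0.02 for Col23a1 (FDR = 0.989), -3.02 for Col25a1 (FDR = 0.0656) and -1.40 for Col14a1 (FDR = 0.45). Without replicate 1 they were -0.38 (FDR = 0.595), -0.27 (FDR = 0.822), -2.66 (FDR = 0.0743) and -1.90 (FDR = 0.247). Of 9 alternative settings 5 lost the call of Col22a1, 6 that of Col23a1, 6 that of Col14a1 and 1 that of Col25a1. Col7a1 (0.59), Col9a2 (-0.48), Col9a3 (0.07), Col19a1 (0.14), Col20a1 (0.41) and Col28a1 (0.82) were not called.

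**Figure D4:**
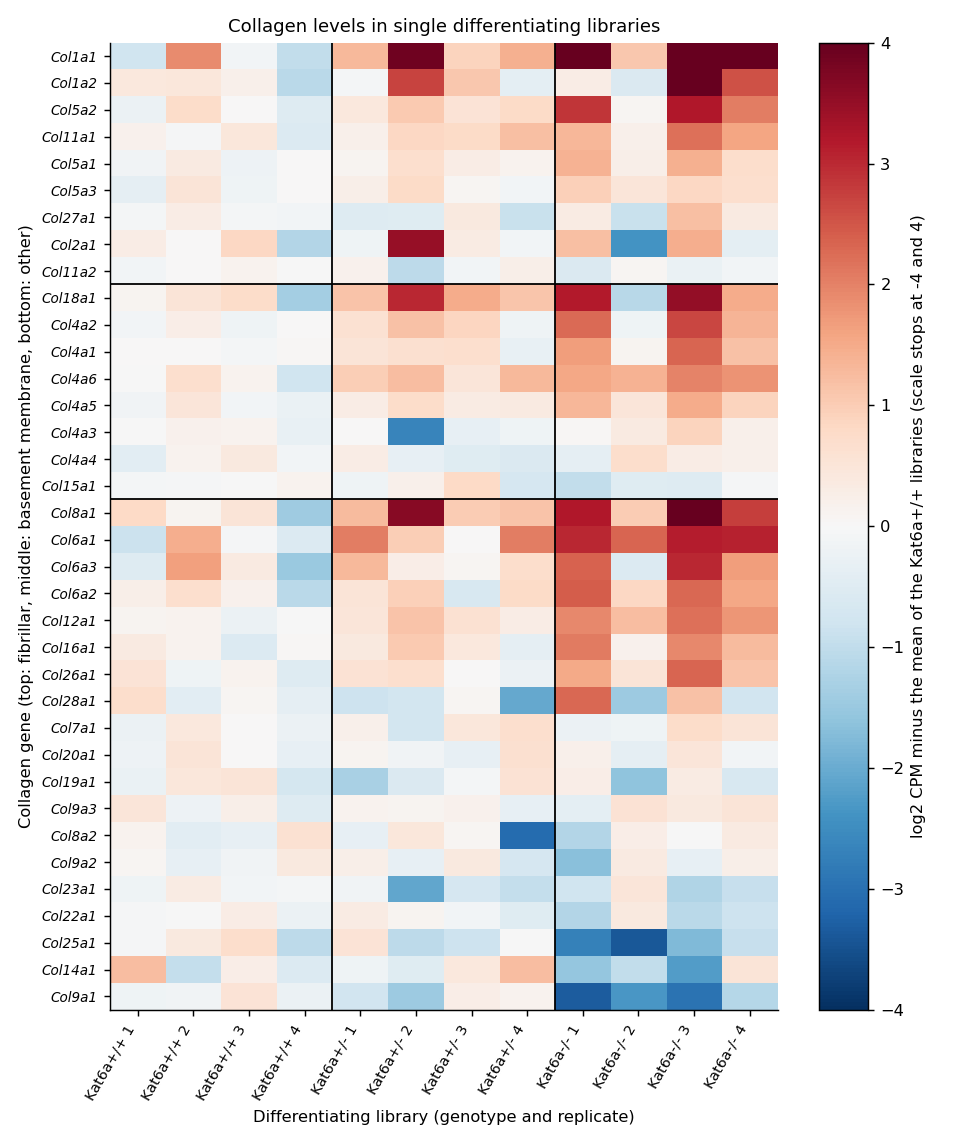
Each differentiating library (columns) and each of the 36 tested collagen genes (rows), coloured by log2 CPM minus the mean of the 4 Kat6a+/+ libraries, with the colour scale stopping at -4 and 4. Kat6a-/- replicates 1, 3 and 4 have 20, 23 and 22 genes above the Kat6a+/+ range and replicate 2 has 11.

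Single differentiating Kat6a-/- libraries were set against the range of the 4 Kat6a+/+ libraries. Replicate 1 lay above that range for 20 of 36 collagen genes, below it for 9 and within it for 7, where 37.7% of all genes tested lay above. Replicate 3 lay above for 23 (35.4% of all genes), below for 8 and within for 5. Replicate 4 lay above for 22 (29.4% of all genes), below for 5 and within for 9. In these 3 libraries the share of collagen genes above the range exceeded that of all genes. Replicate 2 lay above for 11 (33.6% of all genes), below for 10 and within for 15. By class, 0 of 9 fibrillar genes in replicate 2 lay above the range, against 7, 8 and 7 in replicates 1, 3 and 4. For the basement membrane genes the counts were 4 of 8 in replicate 2 and 5, 6 and 6 in the others, and for the other collagens 7 of 19 in replicate 2 and 8, 9 and 9. Across the group, all 4 Kat6a-/- libraries lay above all 4 Kat6a+/+ libraries for Col4a1, Col4a6, Col6a1, Col6a2, Col8a1 and Col12a1, 6 of 36 genes beside 12.2% of all genes. They lay below for Col9a1, 1 of 36 beside 14.7% of all genes.

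**Figure D5:**
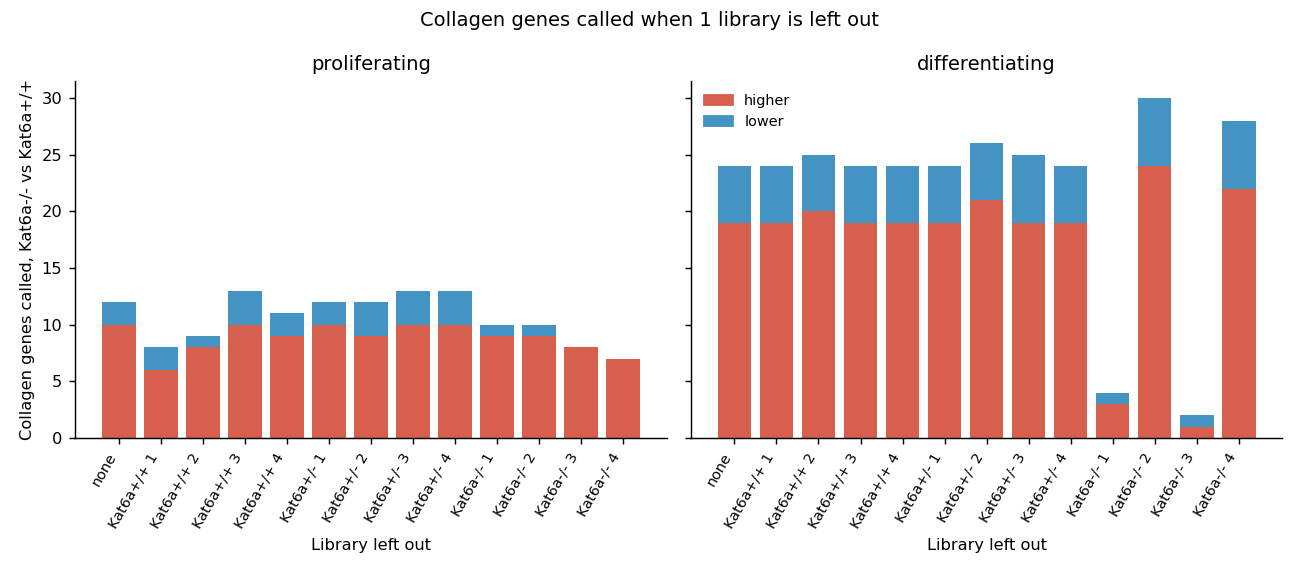
Number of collagen genes called higher and lower in Kat6a-/- vs. Kat6a+/+ cells (stacked bars) in each condition, with all libraries (none) and with each library left out in turn. In differentiating cells the count drops to 2 without Kat6a-/- replicate 3 and to 4 without replicate 1, and rises to 30 without replicate 2.

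Markers of other cell types also differed between the differentiating Kat6a-/- libraries. Among all genes tested in differentiating cells, 26.7% were called higher and 27.7% lower in Kat6a-/- vs. Kat6a+/+. Of 10 fibroblast and meningeal markers 4 were tested and 3 rose in differentiating Kat6a-/- cells. Their summed level was 123.1 to 150.6 CPM in Kat6a+/+ libraries, 154.5 to 209.3 CPM in Kat6a+/- libraries and 398.7, 152.4, 376.8 and 279.5 CPM in Kat6a-/- libraries. Replicates 1 and 3, which had the highest fibrillar collagen shares, also had the highest summed levels, while 5 of the markers (Dcn, Lum, Twist2, Foxc2 and Aldh1a2) were under 1 CPM in every differentiating library. Of 7 pericyte and smooth muscle markers 3 were tested and 2 rose. Their sum was 260.9, 554.0, 258.8 and 196.5 CPM in Kat6a+/+ libraries, 319.6, 1123, 388.5 and 136.2 CPM in Kat6a+/- libraries and 642.3, 114.8, 686.3 and 389.5 CPM in Kat6a-/- libraries, with Kcnj8, Abcc9 and Des under 1 CPM in all. The highest of all 12 was Kat6a+/- replicate 2, which was also the highest Kat6a+/- library for Col1a1, Col5a2 and Col8a1. Endothelial markers summed to 46.36 to 72.48 CPM in Kat6a+/+ libraries and 10.83, 33.46, 10.88 and 36.89 CPM in Kat6a-/- libraries, with 6 of 8 under 1 CPM. The 1 endothelial marker tested was called lower. Astrocyte markers summed to 946.6 to 1594 CPM in Kat6a+/+ libraries and 717.1, 4879, 964.8 and 2265 CPM in Kat6a-/- libraries, highest in replicate 2. Of these 6 markers 1 was called higher and 2 lower. Oligodendrocyte markers, of which 4 of 5 tested were called lower, summed to 1173 to 1391 CPM in Kat6a+/+ libraries and 676.4, 663.6, 973.2 and 1170 CPM in Kat6a-/- libraries. Neuron markers, of which 1 of 6 was called higher and 3 lower, summed to 532.2 to 699.1 and to 466.1, 767.1, 531.4 and 609.8 CPM. Replicate 2 had the highest neuron sum, but it lay close to replicate 4 in the endothelial and to replicate 1 in the oligodendrocyte markers. The part of these cell types in the collagen levels was not tested.

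Loss of a single Kat6a allele gave no called collagen gene. In Kat6a+/- vs. Kat6a+/+ cells limma called none of the 25 genes tested in proliferating cells (0.0% of all genes) and none of the 36 in differentiating cells (0.0% of all genes), and edgeR and DESeq2 called none of them either. At an unadjusted p under 0.05 there were 2 and 8, beside 7.43% and 14.4% of all genes. The smallest p-values among proliferating cells were those of Col4a2 (0.36 ± 0.12, FDR = 0.485), Col26a1 (0.87 ± 0.29, FDR = 0.486) and Col11a2 (-0.43 ± 0.23, FDR = 0.716). Col26a1 was at 9.58, 19.8, 14.7 and 22.4 CPM in Kat6a+/- libraries, of which 1 lay within the Kat6a+/+ range. In differentiating cells the smallest were those of Col4a6 (0.98 ± 0.22, FDR = 0.163), Col6a1 (1.85 ± 0.46, FDR = 0.172) and Col12a1 (0.59 ± 0.15, FDR = 0.199). All 4 Kat6a+/- libraries of Col12a1 and 3 of 4 of Col4a6 lay above the Kat6a+/+ libraries. Col4a6 and Col6a1 were called when Kat6a+/- replicate 3 or Kat6a+/+ replicate 2 was left out.

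In Kat6a-/- vs. Kat6a+/- cells, a comparison that shares its Kat6a-/- libraries with Kat6a-/- vs. Kat6a+/+ and its Kat6a+/- libraries with Kat6a+/- vs. Kat6a+/+, 6 of 25 collagen genes were higher and 1 was lower in proliferating cells, beside 8.47% and 6.3% of all genes. Col4a1 (0.70, FDR = 0.00122), Col4a2 (0.74), Col5a3 (1.07), Col9a2 (1.49), Col9a3 (0.98) and Col11a1 (0.58) were higher and Col18a1 was lower (-1.44, FDR = 0.0155). In differentiating cells 19 of 36 were higher and 4 lower, beside 19.1% and 18.5% of all genes, with Col5a2 at 2.31 and Col12a1 at 1.50 (FDR = 0.000105), and the 4 lower genes were Col9a1 (-2.31), Col14a1, Col22a1 and Col25a1. The differentiating counts were 3 with edgeR and 2 without quality weights, and 0 genes were called without Kat6a-/- replicate 1 or replicate 3. The share of all genes called in these fits was not set beside the counts, so the losses are not shown to be particular to the collagens.

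Set side by side, 7 of the 25 genes tested in both conditions were called higher in Kat6a-/- cells of both, beside 6.68% of all genes, namely Col4a1, Col4a2, Col4a5, Col4a6, Col5a3, Col11a1 and Col26a1. Col9a1 was higher in proliferating and lower in differentiating cells, and Col18a1 the reverse. Whether the effect of the genotype differed between the conditions was tested as an interaction in the fit of all 24 libraries. It was called positive, a more positive effect in differentiating cells, for Col12a1 (3.27 ± 0.51, FDR = 0.00034), Col5a2 (2.10 ± 0.56, FDR = 0.0166), Col16a1 (1.65 ± 0.50, FDR = 0.0332) and Col5a1 (0.98 ± 0.31, FDR = 0.0403), beside 6.36% of all genes. It was called negative for Col9a1 (-4.39 ± 0.91, FDR = 0.00277) and Col25a1 (-3.25 ± 0.94, FDR = 0.0248), beside 7.58% of all genes. The interaction was called for none of the 8 basement membrane chains, Col18a1 included. Col5a2, Col9a1, Col12a1 and Col25a1 were called with each of the 24 libraries left out. The call of Col5a1 was lost in 17 of these 24 fits (FDR up to 0.113) and that of Col16a1 in 10 (FDR up to 0.0843). For Col12a1 all 4 proliferating Kat6a-/- libraries lay below the Kat6a+/+ libraries, a difference that was not called (FDR = 0.055). All 4 differentiating Kat6a-/- libraries lay above the Kat6a+/+ libraries.

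Genes for the enzymes and chaperones that make collagen were called mostly higher in differentiating cells. Of 24 biosynthesis genes 20 rose and 1 fell in Kat6a-/- vs. Kat6a+/+ cells, with a median log2 fold-change of 0.75, beside 26.7% higher and 27.7% lower among all genes. P4ha2, a prolyl hydroxylase subunit, was at 1.75, 1.51, 1.4 and 0.375 CPM in Kat6a+/+ libraries and 13, 1.89, 17.1 and 4.88 CPM in Kat6a-/- libraries (3.22 ± 0.49, FDR = 0.000181). Fkbp10, a collagen chaperone, was at 24.3, 10.3, 22.9 and 12.2 CPM and at 78.4, 27.1, 136.0 and 60.1 CPM (2.41 ± 0.35). P4ha1, the main prolyl hydroxylase subunit, was at 127.0, 148.0, 128.0 and 121.0 CPM and at 319.0, 140.0, 400.0 and 261.0 CPM (1.46 ± 0.15). Replicate 2 was the lowest Kat6a-/- library for each of the 3 genes. Colgalt2, a collagen galactosyltransferase, was the gene that fell (-0.52). Only 1 gene of the list was called without Kat6a-/- replicate 1 and 2 without replicate 3, and edgeR called 8 higher and 1 lower. For this list and the lists below, the share of all genes called in such fits was not set beside the counts.

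Of 14 genes for processing and cross-linking, 9 rose and 1 fell in differentiating cells, beside the same 26.7% and 27.7% of all genes. Lox, the lysyl oxidase that cross-links fibrils, was at 2.25, 3.57, 1.97 and 1.12 CPM in Kat6a+/+ libraries, 2.45, 9.41, 3.8 and 3.01 CPM in Kat6a+/- libraries and 64.2, 2.46, 134.0 and 30.5 CPM in Kat6a-/- libraries (5.33 ± 0.55, FDR = 1.34e-05). The procollagen N-protease Adamts14 (3.75) and Loxl2 (3.14) rose and the tolloid protease Tll2 fell (-1.59). Of this list 1 gene was called without Kat6a-/- replicate 1 and 1 without replicate 3, and edgeR called 7 higher. Of 10 collagen receptors 5 rose and 3 fell, against 26.7% and 27.7% of all genes. Itga11, the alpha chain of a fibrillar collagen integrin, was at 0.274, 1.19, 0.337 and 0.292 CPM in Kat6a+/+ libraries and 7.66, 0.524, 9.37 and 1.92 CPM in Kat6a-/- libraries (3.93). Replicate 2 lay within the Kat6a+/+ range for both Lox and Itga11. The endocytic receptor Mrc2 (1.89) and Itga1 (1.66) also rose, and Itga2 (-1.79), the collagen III receptor Adgrg1 (-0.58) and Ddr2 (-0.52) fell. Without Kat6a-/- replicate 1 or replicate 3, 1 receptor gene was called.

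Of 13 partners of collagen IV in basement membranes 11 rose and none fell in differentiating cells, beside 26.7% and 27.7% of all genes. Lama4, a laminin chain of vessels, was at 7.78, 16.4, 7.37 and 2.75 CPM in Kat6a+/+ libraries and 84.9, 4.14, 97.4 and 20.3 CPM in Kat6a-/- libraries (3.30). Lamb1, a widespread laminin chain, was at 61.5, 114.0, 60.1 and 51.7 CPM and at 640.0, 71.6, 580.0 and 229.0 CPM (2.96). Hspg2, which encodes perlecan, was at 386.0, 1030, 468.0 and 357.0 CPM and at 2450, 268.0, 2210 and 961.0 CPM (2.08). For Hspg2 replicate 2 was the lowest of the 8 libraries. None of these partners was called by limma without Kat6a-/- replicate 1 or without replicate 3, and edgeR called 2.

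In proliferating cells, where 16.2% of all genes rose and 13.8% fell, the same lists were counted. Of the biosynthesis genes 5 of 24 rose, Fkbp10 by 2.00 ± 0.40 (FDR = 0.00391), Creb3l1 by 0.87 and Fkbp14 by 0.78 the most, and 2 fell, Colgalt2 (-0.56) and Plod3 (-0.36). Of 9 processing genes, Loxl3 rose by 1.66 (FDR = 5.79e-05) and Adamts14 fell by 0.95 (FDR = 0.000144), and of 8 receptors Adgrg1 rose by 0.23. Among 10 basement membrane partners the nidogens Nid1 (1.42) and Nid2 (0.91) and the laminin gene Lamb1 (0.58) rose and Lama4 fell (-0.65, FDR = 0.0306). Over the 12 differentiating libraries, the genes outside the collagens whose log2 CPM followed the summed fibrillar collagens most closely were Lox (Pearson r = 0.988), P4ha1 (0.981), Fbn1 (0.981), Lamb1 (0.981) and Emilin1 (0.979). Over the 12 proliferating libraries they were Dop1b (0.916), Hsd17b11 (0.912), Mief2 (0.908), Golga5 (0.907) and Rin2 (0.907). These values describe likeness across libraries that share genotype and depth, and they are not a test.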

How the data were processed

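Total RNA of 24 NSPC cultures was sequenced as stranded poly(A) libraries, and the deposited files hold counts per gene, which per the study's methods the authors obtained by aligning reads to the mouse genome build mm39 and counting with featureCounts. Protein-coding genes without Xist and genes of the Y chromosome were kept, filtered with filterByExpr and scaled by TMM in edgeR 4.0.16 (R 4.3.3). Proliferating libraries were fitted with limma 3.58.1 (voom, robust, litter as a random block with correlation 0.287). For the differentiating libraries limma-trend was run on log2 CPM, with a prior count of 2 and quality weights from arrayWeights, a fit in which the weight of a library can decide a call. A voom fit of all 24 libraries tested the conditions and the interaction. It took litter as a random block and did not pair libraries that carry the same embryo number. P-values were adjusted by Benjamini-Hochberg over all genes of a fit. Alternatives were edgeR's quasi-likelihood test, DESeq2 1.42.0, other normalization, filters, litter and replicate terms, each library left out and, chosen after seeing the data, Y-linked reads as a term. Class shares are sums of counts and were not tested. Precision is limited by 4 libraries a group, for which an exact permutation test of 1 value cannot go below p = 0.0286. No pair of replicates agreed within counting noise (lowest chi-square per degree of freedom 5.81). The fits were also run on simulated counts with a common dispersion and without differences in library quality or litter effects. That run cannot check how the weights act on libraries of unequal quality.

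Values in every Kat6a+/+ and Kat6a-/- library are given for 15 listed collagens where tested. They are also given, per class, for up to 3 genes a direction with the largest called change and a positive average log2 CPM. Kat6a+/- values are given for some of these genes. The members, lists and classes were chosen with earlier results of these data known. Wild-type replicate 2 carries litter numbers in the 2 conditions that differ by the order of their digits, and labels were used as they stand.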

Additional observations from a re-analysis of the deposited data

Results flagged for a closer look

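Single libraries of 18 of 114 groups of 4 stood apart by Dixon's test, which flags about 1 in 20 independent groups of normally distributed values. The values here were CPM without a log, the groups shared libraries and genes, and every flag was a high value. The 18 are thus not shown to exceed chance. In proliferating cells these were Kat6a+/- replicate 4 for Col4a5 (114.0 CPM), Col4a6 (17.6 CPM) and the basement membrane collagens together (206.7 CPM), Kat6a+/- replicate 3 for Col12a1 (168.0 CPM), and Kat6a+/+ replicate 3 for Col4a6 (5.5 CPM) and Col26a1 (11.3 CPM). In differentiating cells Kat6a+/- replicate 2 was high for Col1a1 (65.3 CPM), Col2a1 (31.1 CPM), Col4a5 (818.0 CPM), Col18a1 (47.2 CPM), Col8a1 (353.0 CPM) and the basement membrane collagens together (1262 CPM). Kat6a+/+ replicate 2 was high for Col1a1 (16.2 CPM) and Col23a1 (10.1 CPM), Kat6a+/+ replicate 3 for Col9a1 (4.62 CPM) and Kat6a+/+ replicate 1 for the other collagens together (422.3 CPM). Kat6a-/- replicate 2 was high for Col22a1 (18.4 CPM) and Col23a1 (11.3 CPM), for which the other Kat6a-/- libraries were below the Kat6a+/+ range.

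The interaction of condition and Kat6a-/- genotype was called for Col5a1 (0.98), Col5a2 (2.10), Col9a1 (-4.39), Col12a1 (3.27), Col16a1 (1.65) and Col25a1 (-3.25). The calls of Col5a1 and Col16a1 were lost in some fits with single libraries left out.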

How the results depend on the processing

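In differentiating Kat6a-/- vs. Kat6a+/+ cells 24 collagen genes were called, and 14 with voom and a litter block and 14 with litter as a fixed term. For Kat6a-/- vs. Kat6a+/- the 23 calls became 12 with DESeq2, 3 with edgeR, 3 with voom and a litter block, 1 with litter as a fixed term, 15 with no filter, 2 without quality weights and 5 with Y-linked reads as a term. The 6 interaction calls became 12 with DESeq2 and 11 with edgeR. The cause of these changes was not tested. The share of all genes called in each fit was not set beside the counts of this section. The changes are thus not shown to be particular to the collagens. With single libraries left out, Kat6a-/- vs. Kat6a+/+ gave 7 to 13 calls in proliferating and 2 to 30 in differentiating cells, Kat6a+/- vs. Kat6a+/+ 0 to 0 and 0 to 2, Kat6a-/- vs. Kat6a+/- 5 to 9 and 0 to 26, the conditions 19 to 23 and the interaction 4 to 12.

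Replicate numbers did not pair the samples, since same-numbered libraries deviated with correlations of -0.428 to 0.545 in proliferating and -0.483 to 0.156 in differentiating cells. With the replicate block, Kat6a-/- vs. Kat6a+/+ gave 12 and 25 calls, Kat6a-/- vs. Kat6a+/- 5 and 20, Kat6a+/- vs. Kat6a+/+ 0 and 0, the conditions 21 and the interaction 5.

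Genes not called by the main fit changed sign with other settings. In proliferating cells these were Col5a1 (-0.007 with no litter block, -0.051 with Y-linked reads), Col5a2 (0.013 with DESeq2, 0.011 with edgeR), Col7a1 (-0.077 with litter fixed), Col20a1 (0.016 with DESeq2, 0.005 with edgeR) and Col27a1 (0.166 with DESeq2, 0.170 with edgeR, 0.101 with no litter block, 0.090 with the replicate block). In differentiating cells these were Col2a1 (-0.216 with voom, -0.032 without quality weights), Col4a3 (-0.498 with Y-linked reads), Col8a2 (0.579 with Y-linked reads), Col9a3 (-0.071 with library totals) and Col19a1 (-0.319 with DESeq2, -0.329 with edgeR, -0.526 with voom, -0.034 with no filter, -0.405 without quality weights, -0.106 with the replicate block, -0.235 with Y-linked reads).

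With single libraries left out, estimates in differentiating cells ranged over 0 for Col1a2 (-0.065 to 3.916), Col2a1 (-1.269 to 1.265), Col4a4 (-0.010 to 0.535), Col7a1 (-0.023 to 0.772), Col8a2 (-0.358 to 0.169), Col9a2 (-0.587 to 0.042), Col9a3 (-0.018 to 0.338), Col19a1 (-0.912 to 0.420), Col20a1 (-0.073 to 0.528), Col23a1 (-1.134 to 0.022), Col27a1 (-0.293 to 1.205) and Col28a1 (-0.434 to 1.194). In proliferating cells they did for Col5a1 (-0.118 to 0.174), Col5a2 (-0.157 to 0.062), Col7a1 (-0.053 to 0.542), Col20a1 (-0.367 to 0.181), Col22a1 (-0.004 to 0.540) and Col27a1 (-0.278 to 0.104).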
